A study of Rattus norvegicus with 4 samples.

Results

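The 4 mature arms of the rat miR-221 and miR-222 hairpins were followed in small-RNA libraries of cultured vascular smooth muscle cells from the Sprague-Dawley rat aorta. Each sequenced distinct small RNA (tag) was given to an arm if its first 18 nt equalled those of the RefSeq mature sequence, and none of the 4 starts is shared with another annotated rat miRNA. The arms are 4 of the 407 annotated mature miRNAs that had reads, and they took 24990 of the 56420015 deposited reads, in 1150 distinct tags. All cells were kept without serum for 48 h. There was 1 library for each of 3 times, 1 h, 3 h and 24 h, with 100 nM of the vessel-constricting hormone angiotensin II (Ang II), and 1 for cells without it. No difference below therefore has a replicate check or a test of conditions. The single untreated library serves all times and has no time of its own, so the effects of Ang II and of hours in culture cannot be told apart. The comparison is of each time with untreated cells.

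A miRNA hairpin is cut by the nuclease Drosha at its base and by Dicer near its loop, which leaves a duplex of a 5p and a 3p arm. Usually a single arm is loaded into Argonaute and kept, and the other arm and the loop are degraded. miR-221 and miR-222 are made from neighbouring hairpins and their 3p arms share a seed, the stretch that pairs with targets. In vascular smooth muscle the 3p arms are known for promoting proliferation, in part by repressing the cell-cycle inhibitor Cdkn1b, and they rise with platelet-derived growth factor and after vessel injury. They are also abundant in endothelial cells.

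The mature sequences show which arms share a seed. They are given below from RefSeq (build GRCr8), 5′ to 3′, with the seed (bases 2 to 8) in capitals.
miR-221-3p: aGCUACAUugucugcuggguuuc
miR-222-3p: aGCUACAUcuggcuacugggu
miR-221-5p: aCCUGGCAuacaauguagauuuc
miR-222-5p: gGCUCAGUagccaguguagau
The 3p arms share their first 8 bases and are the 2 annotated rat miRNAs with the seed GCUACAU. Each 5p arm is the single annotated rat miRNA with its seed. The 3p arms are identical at 11 of 21 positions counted from the 5′ end and the 5p arms at 5 of 21, so reads could not be confused between the hairpins.

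The hairpins are shown because several results below concern the bases between the arms. They are written 5′ to 3′ on the plus strand from RefSeq, with the annotated mature arms in capitals.
miR-221: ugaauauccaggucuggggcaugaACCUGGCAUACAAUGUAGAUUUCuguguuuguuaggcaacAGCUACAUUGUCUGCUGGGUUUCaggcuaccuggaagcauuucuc
miR-222: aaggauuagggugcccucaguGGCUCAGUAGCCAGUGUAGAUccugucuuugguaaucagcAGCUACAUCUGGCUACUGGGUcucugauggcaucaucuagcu
The miR-222 hairpin (Mir222) lies at chrX:6022621-6022723 and the miR-221 hairpin (Mir221) at chrX:6023182-6023290, with 458 bases between them. Both lie inside the spans of 2 long non-coding RNA genes, LOC120099382 (chrX:5942511-6024221) and LOC120099384 (chrX:6004097-6045038). The strand and exons of these genes were not given in the table used.

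Between 13119417 and 14534892 reads were deposited per library, and 68.4% to 74.4% of them began like an annotated mature miRNA. Levels are reads per 1000000 deposited reads (RPM). Ranges in brackets are exact 95% intervals for counting error alone. They treat each read as a separate count, so they are too narrow where reads are PCR copies of the same molecule. Of the markers looked at, miR-143-3p and miR-145-5p of smooth muscle together held 250500 to 312200 RPM. The endothelial arms miR-126a-3p and miR-126a-5p together held 120.2 RPM in untreated cells and 113.3 (1 h), 125.5 (3 h) and 104.9 RPM (24 h) with Ang II. Blood and immune markers summed to 0.457 to 0.757 RPM, with 3 of the 5 arms listed in no library, and the 3 epithelial arms to 3.55 to 6.40 RPM. Of the marker list, miR-150-5p, miR-200a-3p and miR-200b-3p were not matched. Their part in the results was not tested. In such bulk samples, fewer cells of a type and less RNA per cell cannot be told apart.

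In the 1 h and 3 h libraries the 5p arms were above untreated cells and the 3p arms were not. miR-221-5p, the usually discarded arm, had 62.2 RPM in untreated cells (58.2 to 66.5) and 131.4 RPM at 1 h (125.3 to 137.8), 151.4 RPM at 3 h (145.1 to 157.9) and 75.6 RPM at 24 h (71.2 to 80.2). The level at 24 h lay nearer to untreated cells than to 3 h. The ratio to untreated cells was 2.11 at 1 h (1.95 to 2.29), 2.43 at 3 h (2.25 to 2.63) and 1.22 at 24 h (1.11 to 1.33). Against 3 h, the 24 h level was 0.499 times as high (0.464 to 0.537).

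Counted from its annotated start, miR-222-5p was rare, with 25 reads in untreated cells, 40 at 1 h, 132 at 3 h and 24 at 24 h. This came to 1.74 RPM in untreated cells (1.12 to 2.56) and 3.05 (2.18 to 4.15), 9.19 (7.69 to 10.9) and 1.65 RPM (1.06 to 2.46) at 1 h, 3 h and 24 h. Its 3 h library stood above the other 3, whose levels were within a few RPM of each other. The ratio to untreated cells was 5.29 at 3 h (3.43 to 8.47), against 1.76 at 1 h (1.04 to 3.02) and 0.951 at 24 h (0.520 to 1.74). Against 1 h, the 3 h level was 3.01 times as high (2.10 to 4.41), whereas for miR-221-5p that ratio was 1.15 (1.08 to 1.23).

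The 3p arms, which are the arms usually loaded, moved little and stood below untreated cells at first. The median log2 ratio of annotated miRNAs with 100 reads was then also negative (-0.09 at 1 h and -0.05 at 3 h). miR-221-3p had 186.2 RPM in untreated cells and 162.4, 173.6 and 219.0 RPM at 1 h, 3 h and 24 h. Its ratios to untreated cells were 0.872 at 1 h (0.823 to 0.923), 0.932 at 3 h (0.882 to 0.985) and 1.18 at 24 h (1.12 to 1.24). miR-222-3p had 154.3 RPM in untreated cells and 128.6, 140.3 and 169.4 RPM at 1 h, 3 h and 24 h. The ratios for miR-222-3p were 0.834 (0.782 to 0.888), 0.909 (0.856 to 0.966) and 1.10 (1.04 to 1.16). Both 3p arms were thus lowest at 1 h and highest at 24 h, and below untreated cells at 1 h and 3 h. The sign at 3 h turned for miR-221-3p (log2 ratio 0.033) when tags had to hold the whole mature sequence. The ratio of miR-221-3p to miR-222-3p reads was 1.21 in untreated cells (1.14 to 1.28), 1.26 at 1 h, 1.24 at 3 h and 1.29 at 24 h (1.23 to 1.36). For the 5p arms the ratio of miR-221 to miR-222 reads was 35.8 in untreated cells (24.1 to 55.7), 43.1 at 1 h (31.5 to 60.6), 16.5 at 3 h (13.8 to 19.8) and 45.8 at 24 h (30.6 to 71.8). These compare different sequences, and how readily each was ligated was not measured.

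**Figure D1:**
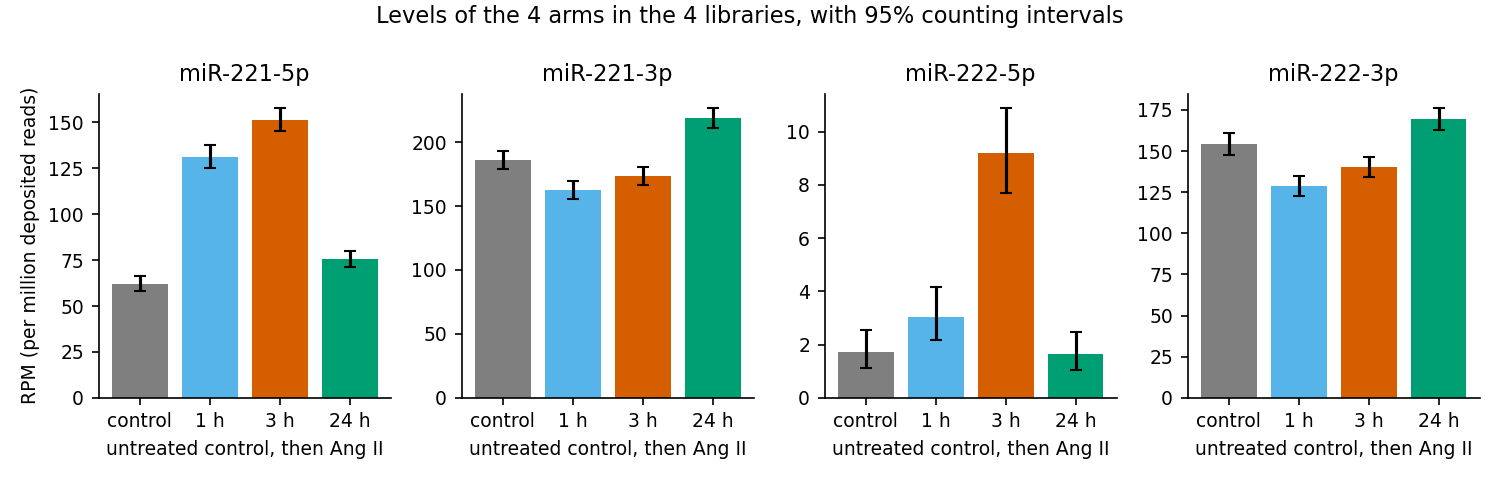
Level of each arm (RPM, linear axis from 0, a scale of its own in each panel) in untreated cells and after 1 h, 3 h and 24 h of Ang II; bars are single libraries and error bars exact 95% counting intervals. miR-221-5p stands at 131.4 and 151.4 RPM at 1 h and 3 h, against 62.2 RPM in untreated cells, and miR-222-5p at 9.19 RPM at 3 h, against 1.74 RPM, while the 3p arms are lowest at 1 h and highest at 24 h.

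By level, miR-221-3p came first of the 4 arms and miR-222-5p last in every library. miR-222-3p was above miR-221-5p in untreated cells and at 24 h. At 1 h their intervals overlapped, with 131.4 RPM for miR-221-5p and 128.6 RPM for miR-222-3p, and at 3 h also, with 151.4 RPM (145.1 to 157.9) and 140.3 RPM (134.2 to 146.6). None was among the abundant miRNAs of these cells. miR-221-3p ranked 59th of the 407 at 24 h and 69th in untreated cells, and miR-221-5p ranked 75th at 3 h and 96th in untreated cells.

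Among all annotated miRNAs the 5p arms were near the top early on. The log2 ratio was taken after adding 1 RPM to both levels, and a miRNA counted as higher or lower past 1.5-fold, given 100 or more reads in whichever library had more. At 1 h, 4 of 174 miRNAs with that many reads were higher (2.30%) and 4 lower (2.30%). Of the 3 arms with 100 reads at 1 h, miR-221-5p was higher (log2 ratio 1.07, rank 3 from the top) and the 3p arms were neither. miR-221-3p (-0.20) held rank 108 of the 174 and miR-222-3p (-0.26) rank 129. At 3 h, 7 of 176 miRNAs were higher (3.98%) and 7 lower (3.98%). Both 5p arms were among the 7, miR-222-5p with the top log2 ratio of all (1.90) and miR-221-5p at rank 5 (1.27). The 3p arms held ranks 100 (miR-221-3p, -0.10) and 113 (miR-222-3p, -0.14) of the 176. miR-222-5p reached 100 reads in the 3 h library alone, so it could enter only where it was high. At 24 h, 9 of 178 were higher (5.06%) and 29 lower (16.3%), and none of the 3 arms with 100 reads was either. The median log2 ratio of all miRNAs with 100 reads was -0.09 at 1 h, -0.05 at 3 h and -0.25 at 24 h. Beside the last, miR-221-5p (0.28), miR-221-3p (0.23) and miR-222-3p (0.13) held ranks 21, 27 and 34 of 178. With TMM factors, which put that median at 0.01, these 3 values were 0.54, 0.50 and 0.40.

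**Figure D2:**
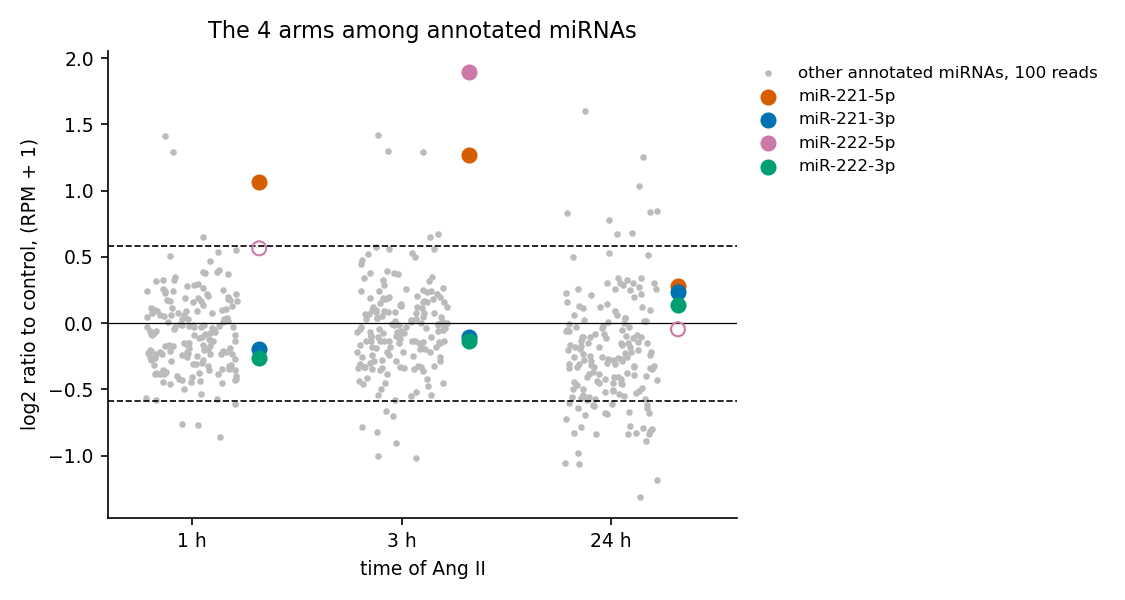
Log2 ratio to untreated cells of each annotated miRNA with 100 reads (grey, spread sideways for sight) and of the 4 arms (coloured) at 1 h, 3 h and 24 h of Ang II; dashed lines mark 1.5-fold, and open circles are miR-222-5p where it had under 100 reads. miR-222-5p (1.90) is the highest point at 3 h, miR-221-5p lies above the upper line at 1 h and 3 h, and the 3p arms stay between the lines.

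The share of the 5p arm within its hairpin does not depend on how libraries are scaled. miR-221-5p held 25.05% of the miR-221 reads in untreated cells (23.6 to 26.5), 44.7% at 1 h (43.2 to 46.3), 46.6% at 3 h (45.2 to 48.0) and 25.7% at 24 h (24.4 to 27). miR-222-5p held 1.11% of the miR-222 reads in untreated cells (0.722 to 1.64), 2.32% at 1 h (1.66 to 3.14), 6.15% at 3 h (5.17 to 7.25) and 0.965% at 24 h (0.620 to 1.43). In both hairpins the interval at 3 h lay above that of untreated cells and the interval at 24 h overlapped it. These shares count the annotated start alone. miR-222 tags that start further in, at positions 24 and 25 of the hairpin, had 56 reads in untreated cells and 47, 51 and 77 at 1 h, 3 h and 24 h. Counting all tags that lie exactly in the hairpin, position 30, within the miR-222 5p arm, was covered by 5.63 RPM in untreated cells. With Ang II the coverage was 6.63 (1 h), 12.6 (3 h) and 6.95 RPM (24 h).

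The arm balance was set beside that of other hairpins. The set compared was 38 hairpins entered with a single 5p and a single 3p name, whose less read arm had 100 reads in a library. It is not every hairpin with that many reads. For instance, miR-106b, miR-15b, miR-152, let-7b and miR-126a had 100 reads in both arms and were not in the set. In the other 36 the median absolute log2 change of 5p over 3p reads was 0.30 at 1 h, 0.30 at 3 h and 0.34 at 24 h. The change for miR-221 was 1.28 at 1 h, 1.38 at 3 h and 0.05 at 24 h, ranks 2, 3 and 35 of the 38 by absolute size. For miR-222 it was 1.06, 2.52 and -0.21, ranks 3, 1 and 23. miR-222 was among the 38 only through its 132 5p reads at 3 h, the library where that arm is high, so its rank there is no measure of how it stands among hairpins. By absolute size the largest change in the other 36 was 1.29 at 1 h, in miR-21, and 1.40 at 3 h, in miR-3559. The change in miR-21 (-1.29 at 1 h and -1.10 at 3 h) was also toward its less read arm, miR-21-3p. At 1 h it was wider than that of miR-221 or miR-222. Among the 38, the 3 widest ranges over the 4 libraries in percentage points were 21.55 for both miR-503 and miR-221 and 17.4 for miR-664-2. The 5p share of miR-503 rested on 39 to 136 reads of that arm, and that of miR-664-2 was 56.3% at 24 h, against 73.7% in untreated cells.

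**Figure D3:**
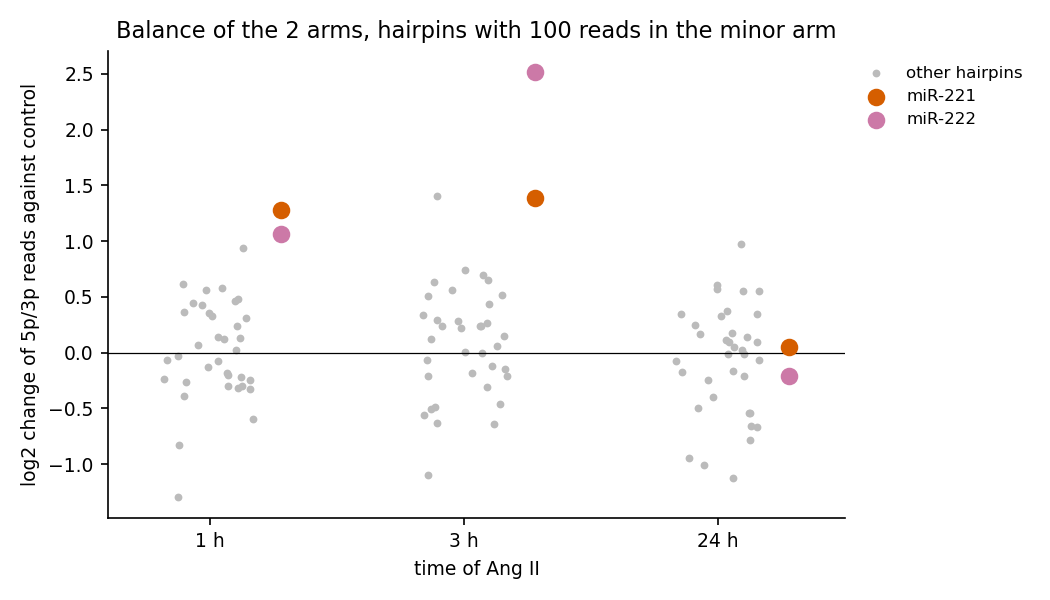
Log2 change of the ratio of 5p to 3p reads against untreated cells at 1 h, 3 h and 24 h of Ang II for miR-221, miR-222 and 36 other hairpins (grey), each point a hairpin. miR-221 stands at 1.28 and 1.38 and miR-222 at 1.06 and 2.52 at 1 h and 3 h, and both lie near 0 at 24 h (0.05 and -0.21).

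Most of the early difference in miR-221-5p lay in a form longer than the annotated mature sequence. The deposited tags of that form, of the lengths between, and of the annotated length are shown 5′ to 3′ as sequenced (T for U), with the bases beyond the annotated end in capitals.
26 nt: acctggcatacaatgtagatttcTGT
25 nt: acctggcatacaatgtagatttcTG
24 nt: acctggcatacaatgtagatttcT
23 nt: acctggcatacaatgtagatttc
Each of these follows the hairpin, so the added bases are those of the precursor, and the 26-nt tag ends at position 50 of the hairpin (counted from 1 at its 5′ end), 14 bases before the 3p arm starts at position 65.

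All tags of 26 nt made up 62.05% of miR-221-5p reads in untreated cells (58.8 to 65.2), 72.8% at 1 h (70.6 to 74.9), 77.6% at 3 h (75.8 to 79.4) and 64.5% at 24 h (61.6 to 67.4). Their level was 38.6 RPM in untreated cells and 95.7, 117.5 and 48.8 RPM at 1 h, 3 h and 24 h. The ratio to untreated cells was 2.48 at 1 h (2.24 to 2.74), 3.04 at 3 h (2.76 to 3.36) and 1.26 at 24 h (1.13 to 1.41). The most read 26-nt tag, printed above, had 480 reads in untreated cells and 1154, 1579 and 649 reads at 1 h, 3 h and 24 h.

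At 3 h the ratio of tags of 27 nt or more, 1.73 (1.15 to 2.62), was below the 3.04 of the 26-nt form. From 26 nt down to 23 nt, the ratio was lower the shorter the form. It was 1.80 for 25 nt (1.47 to 2.21), 1.16 for 24 nt (0.864 to 1.57) and 0.601 for the annotated length of 23 nt (0.378 to 0.942), the last on 33 reads at 3 h and 55 in untreated cells. The 22-nt form was nearly absent, with 4 reads in untreated cells, 11 at 1 h, 4 at 3 h and 5 at 24 h, or 0.278, 0.838, 0.278 and 0.344 RPM. Its ratio was 1.00 at 3 h (0.187 to 5.38), an interval that also holds the ratio of the 26-nt form, so the counts cannot separate these forms. At 1 h the 22-nt ratio was 3.02 (0.894 to 13.0). All lengths other than 26 nt together had 23.6 RPM in untreated cells and 35.7, 33.9 and 26.8 RPM at 1 h, 3 h and 24 h, a ratio of 1.51 at 1 h (1.31 to 1.75) and 1.44 at 3 h (1.25 to 1.65). Counting tags of 20 to 25 nt alone, miR-221-5p was not past 1.5-fold at 1 h or 3 h (log2 ratios 0.53 and 0.46).

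Tags of 26 nt of all kinds are given for comparison. They were 2.31% of all deposited reads in untreated cells and 1.66%, 1.76% and 1.26% at 1 h, 3 h and 24 h. Among annotated miRNA reads they were 0.126% in untreated cells and 0.135%, 0.133% and 0.0833% at 1 h, 3 h and 24 h. Their share in the early libraries was thus lower among all reads. Among miRNA reads it was slightly higher, but these counts include the 26-nt reads of miR-221-5p itself. That arm gave 556 of the 12455 such reads in untreated cells and 1255 of 12896 at 1 h. It gave 1689 of 14200 at 3 h and 709 of 8708 at 24 h. The slightly higher share therefore does not describe the other miRNAs, whose share was not worked out.

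miR-222-5p was mostly 22 nt long, 1 base longer than its annotation, and ended next to the bases of the loop. Its 2 most read tags are shown with the bases beyond the annotated end in capitals.
22 nt: ggctcagtagccagtgtagatC
23 nt: ggctcagtagccagtgtagatCC
The 22-nt tag had 15 reads in untreated cells and, with Ang II, 30 (1 h), 85 (3 h) and 15 (24 h). The 23-nt tag, which ends at position 44 of the hairpin, had 6 reads in untreated cells and 9, 36 and 5. Both were higher at 3 h, 5.68-fold (3.26 to 10.6) and 6.01-fold (2.51 to 17.5). The third most read tag, of the annotated 21 nt, was read 5 times at 3 h, 3 times at 24 h and in neither other library.

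A 17-nt tag lay between the miR-222 arms, from position 45 to position 61, next to the first base of the 3p arm. It starts next to the end of the 23-nt tag. The more read 22-nt tag ends at position 43, which leaves position 44 between that tag and the 17-nt tag.
loop: tgtctttggtaatcagc
This loop tag had 1 read in untreated cells, 8 at 1 h, 29 at 3 h and 5 at 24 h. The 3 h library was the highest, as for miR-222-5p. Its ratio to untreated cells was 29.05 at 3 h (4.82 to 1187), an interval this wide because it rests on 1 untreated read. No other of the 419 annotated hairpins holds the tag, but no genome was searched, and a tag this short could come from elsewhere. For miR-221, the 14 bases between the 26-nt tag and the 3p arm are fewer than the shortest tag in the files, 16 nt, so a loop freed by these cuts could not be seen. Of 156 hairpins with at least 16 bases between their annotated arms, 34 had tags there in some library, and 5 had 20 or more reads in a library, Mir222 among them. The others were Mir129-2, with 3 reads in untreated cells and, with Ang II, 100 (1 h), 20 (3 h) and 2 (24 h), and Mir214, Mir27a and Mir149. In the same order of libraries, Mir214 had 83, 64, 80 and 45 loop reads. Mir27a had 20, 44, 23 and 24 loop reads, and Mir149 had 12, 15, 23 and 5. Mir222 and Mir149 reached 20 loop reads in the 3 h library alone, so that library had to be their highest. Their place among these 5 is thus no measure of a rise at 3 h. For Mir129-2, Mir214 and Mir27a the 3 h library was not the highest.

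Shorter tags within the miR-221-5p arm were, as a group, also highest at 3 h. They start at positions 31 to 35 of the hairpin and mostly end at position 50, where the 26-nt form ends, and the most read of them is the following 18-nt tag.
33 to 50: tacaatgtagatttctgt
These tags together had 28 reads in untreated cells, 46 at 1 h, 91 at 3 h and 41 at 24 h. Their ratio was 3.26 at 3 h (2.11 to 5.17). Most of this lay in starts 33 to 35. In the same order of libraries, start 33 had 11, 26, 36 and 15 reads, start 34 had 4, 8, 21 and 9, and start 35 had 1, 0, 15 and 5. Start 31 had 9, 8, 12 and 9 reads and start 32 had 3, 4, 7 and 3. As no genome was searched, tags this short could come from elsewhere. The 18-nt tag alone had 7 reads in untreated cells and, with Ang II, 21 (1 h), 29 (3 h) and 11 (24 h). Not every tag of the 5p side was highest at 3 h. On miR-222 a set of tags starts at position 25, 3 bases inside the annotated start, and is led by the following 22-nt tag, which runs on to position 46.
25 to 46: tcagtagccagtgtagatcctg
The set had 54 reads in untreated cells, 44 at 1 h, 42 at 3 h and 74 at 24 h. Its ratio was 0.779 at 3 h (0.508 to 1.19), below the interval of the annotated start at 3 h (3.43 to 8.47). In untreated cells this set had more reads than the annotated start. miR-221 tags that start 1 base before the annotated 5p start had 33 reads in untreated cells and, with Ang II, 28 (1 h), 27 (3 h) and 19 (24 h), with a ratio of 0.820 at 3 h (0.474 to 1.41).

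**Figure D4:**
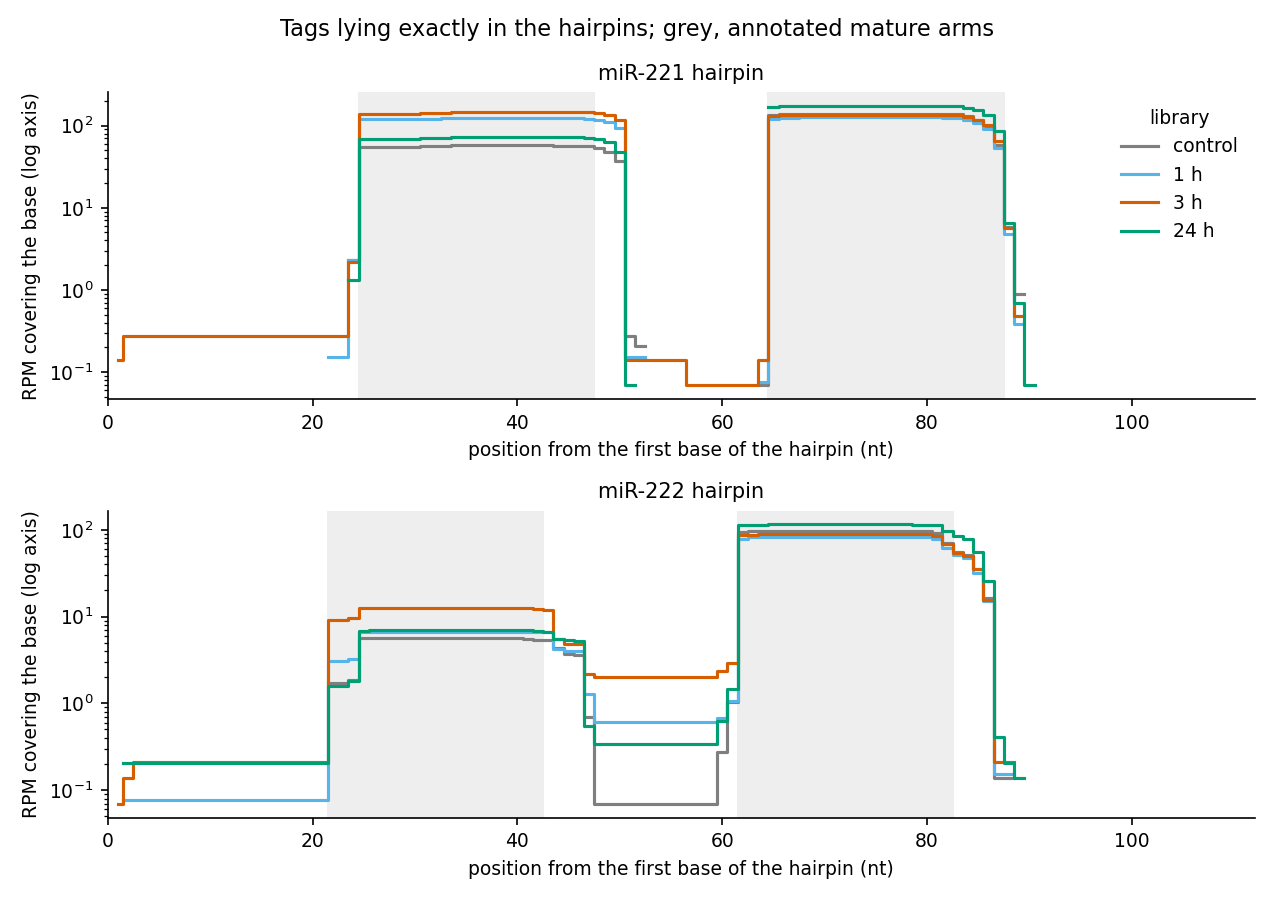
RPM of tags that lie exactly in the hairpin and cover each base (log axis, bases with no reads left out), by position from the first base of the hairpin, in the 4 libraries; grey bands are the annotated mature arms. The 5p arms and positions 47 to 61 of the miR-222 loop (loop tag with 29 reads at 3 h and 1 in untreated cells) are highest at 3 h, positions 45 and 46, which 5p tags also cover, at 24 h, and the 3p arms highest at 24 h.

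The lengths of the 3p arms at 24 h differed from those in untreated cells, and not alike in both arms. Their leading tags are shown with the bases beyond the annotated end in capitals.
miR-221-3p 23 nt: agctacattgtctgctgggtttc
miR-221-3p 22 nt: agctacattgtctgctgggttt
miR-221-3p 21 nt: agctacattgtctgctgggtt
miR-222-3p 24 nt: agctacatctggctactgggtCTC
miR-222-3p 25 nt: agctacatctggctactgggtCTCT
miR-222-3p 23 nt: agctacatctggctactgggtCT
miR-222-3p 20 nt: agctacatctggctactggg
miR-222-3p had 2 sets of lengths, at 20 to 21 nt and at 23 to 25 nt, with few tags of 22 nt between them. Tags of 23 to 25 nt held 46.1% of its reads in untreated cells (44.0 to 48.2), 48.4% at 1 h, 48.1% at 3 h and 58.7% at 24 h (56.8 to 60.7). Tags of 18 to 21 nt held 32.4% in untreated cells (30.5 to 34.4), 29.6% at 1 h, 29.1% at 3 h and 20.4% at 24 h (18.8 to 22.0). In level, the longer set had 71.1 RPM in untreated cells and 62.2, 67.5 and 99.5 RPM at 1 h, 3 h and 24 h, a ratio of 1.40 at 24 h (1.29 to 1.52). The shorter set had 50.0 RPM in untreated cells and 38.0, 40.8 and 34.5 RPM, a ratio of 0.691 at 24 h (0.615 to 0.775). The 2 sets thus lay on opposite sides of untreated cells at 24 h, and the arm as a whole stood at 1.10.

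The 24-nt tag of miR-222-3p had 267 reads in untreated cells and, with Ang II, 214 (1 h), 272 (3 h) and 418 (24 h), and its 20-nt tag 285, 214, 228 and 215 reads in that order.

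miR-221-3p, read most often at its annotated 23 nt, had relatively more tags of 22 to 23 nt at 24 h, and fewer both shorter and longer than that. Its 23-nt tag had 739 reads in untreated cells, 609 at 1 h, 797 at 3 h and 1110 at 24 h. Its 22-nt tag had 517 reads in untreated cells, 462 at 1 h, 509 at 3 h and 684 at 24 h. Its 21-nt tag had 278, 194, 223 and 302 reads in that order. Tags of 22 to 23 nt held 56.8% of its reads in untreated cells (54.9 to 58.7), 59.6% at 1 h, 62.3% at 3 h and 66.1% at 24 h (64.4 to 67.7). Tags of 18 to 21 nt held 19.8% at 24 h (18.5 to 21.3), against 24.8% in untreated cells (23.1 to 26.5). Tags of 24 to 42 nt held 14.1% at 24 h (12.9 to 15.4), against 18.5% in untreated cells (17.0 to 20.0). Its mean length was 22.53 nt at 24 h and 22.48 nt in untreated cells. In level the tags of 22 to 23 nt stood at 1.37 times untreated cells at 24 h (1.28 to 1.46) those of 18 to 21 nt at 0.941 (0.843 to 1.05) and those of 24 to 42 nt at 0.898 (0.789 to 1.02).

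The shift of miR-222-3p to longer tags at 24 h was the widest gain of its kind among 160 miRNAs with 100 reads in every library. Reads longer than the annotated mature sequence were 79.6% of the arm at 24 h, against 67.6% in untreated cells, a difference of 12.0 percentage points. Over the 160 miRNAs the median difference was -0.98 points and the range from the 10th to the 90th percentile -5.62 to 1.29. The next widest gain was 5.88 points, in miR-324-3p. Falls of similar size to the gain of miR-222-3p were present, -12.93 points in miR-450b-5p and -12.82 points in miR-181c-5p. The measure depends on where the annotated end lies, and for miR-222-3p (21 nt) that is between its 2 sets of lengths. For miR-221-3p the difference was -4.36 points, opposite in sign to miR-222-3p and rank 24 from the lowest. Reads shorter than the annotated sequence differed by -6.35 points for miR-222-3p, the third lowest of the 160, and by -2.97 points for miR-221-3p, the tenth lowest, against a median of 0.95. For miR-221-5p, reads longer than the annotated sequence were 97.8% at 3 h, against 93.0% in untreated cells.

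**Figure D5:**
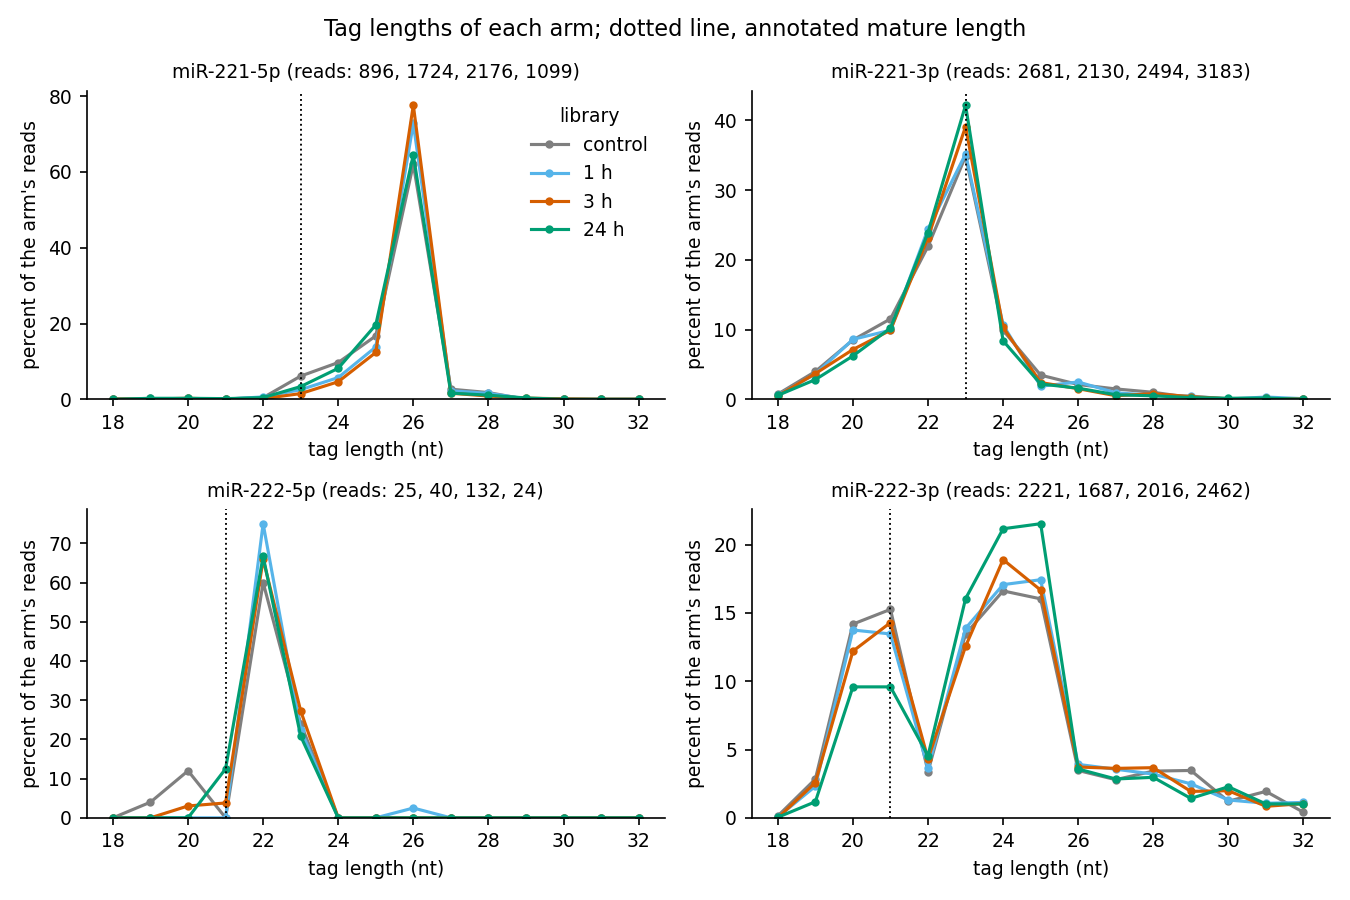
Tag length (nt) against percent of the arm's reads for each arm in the 4 libraries; the reads in each title are those of untreated cells, 1 h, 3 h and 24 h, and the dotted line is the annotated mature length. miR-221-5p peaks at 26 nt, highest at 3 h (77.6%), and in miR-222-3p the set at 23 to 25 nt is highest and that at 20 to 21 nt lowest at 24 h.

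The miRNAs nearest to each arm in pattern were taken as those with the smallest Euclidean distance between log2 ratios at 1 h, 3 h and 24 h, among 179 with 100 reads in a library. Over 4 libraries that share the untreated one, this is a description only. miR-222-5p was among the 179 only through its 132 reads at 3 h, the library where it is high. It had 25 reads in untreated cells, 40 at 1 h and 24 at 24 h, so its distances are no measure of a shared pattern. The nearest to miR-221-5p was miR-21-3p, the minor arm of miR-21, at a distance of 0.60, with log2 ratios of 1.29, 1.29 and 0.84. Next were miR-129-5p (0.85), miR-222-5p (0.86), miR-547-3p (0.93) and miR-7a-5p (0.93), while the median distance to all others was 1.87. The nearest to miR-222-5p was miR-221-5p, followed by miR-21-3p (1.29), miR-7a-5p (1.31), miR-29a-5p (1.38) and miR-450b-5p (1.38). The partner arms were far apart, with miR-221-3p at rank 89 from miR-221-5p (1.86). miR-222-3p was the second nearest to miR-221-3p (0.12), after miR-1843a-5p (0.09) and before miR-23a-3p (0.14), miR-140-3p (0.17) and miR-143-5p (0.18). miR-221-3p was the third nearest to miR-222-3p, after miR-1843a-5p (0.08) and miR-199a-3p (0.10) and before miR-181c-5p (0.15) and miR-140-3p (0.18).

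Other miRNAs of smooth muscle were set beside the arms in 3 lists. Of the miRNAs tied to dividing, synthetic cells, all 5 had 100 reads and 1 was higher at each time, miR-21-3p, beside 2.30%, 3.98% and 5.06% of all miRNAs with 100 reads at 1 h, 3 h and 24 h. Their median log2 ratios were 0.23, 0.24 and 0.23 at 1 h, 3 h and 24 h. The major arm miR-21-5p, abundant in such cells, had 0.05, 0.24 and 0.33. Values for miR-146a-5p, which dampens inflammatory signalling, were 0.18, -0.22 and 0.23, those for miR-31a-5p 0.39, 0.29 and -0.26, and those for miR-26a-5p 0.23, 0.19 and -0.02. Of the contractile list 5 of 6 members had 100 reads and 0 were past 1.5-fold at any time, with medians of -0.03, -0.14 and 0.12. In it miR-143-3p, which maintains the contractile state, had 0.29, 0.32 and 0.30 and miR-145-5p of the same cluster 0.09, -0.04 and 0.12. Their partner arms and miR-1-3p had values between -0.30 and 0.29, and miR-133a-3p had at most 11 reads. Of the early-response list, which also holds both miR-21 arms, 3 of 6 members had 100 reads, and 1 was higher at 1 h (2.30% of all), 2 at 3 h (3.98%) and 2 at 24 h (5.06%). The medians of these 3 were 0.05, 1.29 and 0.84, and miR-21-3p is counted here and in the synthetic list. In the early-response list miR-132-3p, transcribed through the cAMP-responsive factor Creb, had -0.12, 1.30 and 1.26, and so remained high at 24 h where the 5p arms of miR-221 and miR-222 did not. miR-132-5p, miR-212-3p and miR-212-5p had at most 75 reads in a library.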

How the data were processed

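Reads per distinct sequence were counted by the authors, and the deposited files hold them as raw, unscaled counts without a header line. Novoalign and the build rn4 are named, per the submitters' processing notes, without saying what either was used for. How reads were trimmed is not stated there or in the labels. Total RNA was ligated to adapters, amplified and size-selected on a gel, per the labels' protocols. Tags are 16 to 42 nt long. A row that names no sequence held 5.13% to 7.07% of the counts of a file and was left out. The sources do not say whether libraries came from separate cultures.

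Tags were matched by their first 18 nt to 693 RefSeq mature rat miRNAs from 419 hairpins (GRCr8); 7 shorter names were not matched, and tags fitting several names went to the longest common start, ties being shared. Reads with an error in the first 18 nt are missed. RPM used all deposited reads. Intervals are exact Poisson (levels), Clopper-Pearson (shares) and conditional binomial (ratios, with no pseudocount), at 95%. Calls used a pseudocount of 1 RPM, 1.5-fold and 100 reads. The 4 arms were named, with the 5 nearest miRNAs to each, the listed miRNAs and the 3 most read tags per arm. Of the 38 hairpins compared, the 3 with the widest 5p range were also named. Loop, inner and shifted tags, the 18 to 21, 22 to 23 and 23 to 25 nt sets and the comparison of lengths over 160 miRNAs were chosen after their values were seen. Members, lists and limits were chosen with earlier results of these data known. The matching of tags, the calls and the interval of the ratio were first tested on simulated data. Alternatives were other scalings, a pseudocount of 10, other minimums, 2-fold, stricter or wider matching, the 1 h library as reference, and tags of 20 to 25 nt. The tools were Python 3.11.15, numpy 2.4.6, scipy 1.17.1, matplotlib 3.10.9 and edgeR 4.0.16 (R 4.3.3, for TMM factors alone).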

Additional observations from a re-analysis of the deposited data

Results flagged for a closer look

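In RPM over all deposited reads, the 3p arms lay on opposite sides of untreated cells at different times, each beyond counting error. miR-221-3p stood at 0.872 times the untreated level at 1 h and 0.932 at 3 h, against 1.18 at 24 h (1.176). miR-222-3p stood at 0.834 at 1 h (0.8335) and 0.909 at 3 h, against 1.10 at 24 h (1.098). The values at 3 h and 24 h depended on the setting. With TMM factors the log2 ratios at 3 h were -0.04 for miR-221-3p and -0.075 for miR-222-3p. For tags with the whole mature sequence miR-221-3p was at 0.033 at 3 h. At 24 h, scaled to annotated miRNA reads, the log2 ratios were 0.16 for miR-221-3p and 0.06 for miR-222-3p. With TMM factors they were 0.50 and 0.40. Intervals were not worked out at these scalings. With 1 library per time the differences between times were not tested, and all of these values share the untreated library.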

How the results depend on the processing

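No paired analysis was possible because each group holds 1 library, and for the same reason no library could be left out. Scaling to annotated miRNA reads shifted all log2 ratios by -0.09, -0.12 and -0.07 at 1 h, 3 h and 24 h, TMM factors by 0.09, 0.06 and 0.27, and median-of-ratios factors by 0.10, 0.03 and 0.25.

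Over the alternatives against the untreated library, miR-221-5p stayed above it at each time (0.53 to 1.17, 0.46 to 1.37 and 0.21 to 0.54 at 1 h, 3 h and 24 h) and past 1.5-fold at 1 h and 3 h in 8 of 9, the exception being tags of 20 to 25 nt (0.53 and 0.46). At 3 h it was 1.15 scaled to miRNA reads and 1.16 with a pseudocount of 10. At 24 h it was 0.54 with TMM and 0.52 with median-of-ratios factors. miR-222-5p at 3 h was past 1.5-fold in all 9 (0.71 with a pseudocount of 10, which exceeds its level). miR-221-3p at 1 h was -0.29 scaled to miRNA reads, -0.10 with TMM and -0.10 with median-of-ratios factors. At 3 h it was -0.22 scaled to miRNA reads and -0.04 with TMM factors. It was 0.033, on the other side, for tags with the whole mature sequence, where the cause was not tested. At 24 h it was 0.50 with TMM, 0.48 with median-of-ratios factors, 0.44 for the whole mature sequence and 0.33 for templated tags, a setting chosen after seeing the data. miR-222-3p was -0.17 with TMM and -0.16 with median-of-ratios factors at 1 h. At 3 h it was -0.26 scaled to miRNA reads and -0.075 with TMM factors. At 24 h it was 0.06 scaled to miRNA reads, 0.40 with TMM, 0.38 with median-of-ratios factors, 0.29 (0.285) for the whole mature sequence and 0.26 for templated tags.

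Against 1 h in place of untreated cells, values at 3 h and 24 h were 0.20 and -0.79 for miR-221-5p, 0.10 and 0.43 for miR-221-3p, and 0.13 (0.125) and 0.40 (0.395) for miR-222-3p, and at 3 h 1.33 for miR-222-5p.

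The 5p share of miR-221 in untreated cells and at 1 h, 3 h and 24 h was 45.8%, 67.0%, 66.9% and 42.98% for the whole mature sequence, 10.9%, 17.1%, 15.3% and 10.7% (10.65) for tags of 20 to 25 nt, and 28.4%, 49.5%, 51.7% and 28.8% for templated tags. That of miR-222 was 1.84%, 3.72% and 9.60% for templated tags in untreated cells and at 1 h and 3 h, and at 3 h 7.59% for the whole mature sequence and 7.66% for tags of 20 to 25 nt. The share of 26 nt in miR-221-5p was 53.6%, 66.9%, 72.6% and 59.05% for the single most read tag, and for templated tags 75.1% at 1 h and 79.6% at 3 h. In each of these settings the early 5p and 26-nt shares were above those of untreated cells. None of them takes in the miR-222 tags that start at position 25 of the hairpin.

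Counts of all miRNAs past the limit moved more. Higher ones at 1 h (4) became 7 with TMM, 7 with median-of-ratios factors, 8 with 20 reads and 13 with no minimum. Lower ones at 1 h (4) became 9 scaled to miRNA reads, 1 with a pseudocount of 10 and 0 at 2-fold. Higher ones at 3 h (7) became 12 with TMM, 13 with 20 reads and 13 with no minimum. Lower ones at 3 h (7) became 14 scaled to miRNA reads, 4 with a pseudocount of 10, 11 with 20 reads, 12 with no minimum and 2 at 2-fold. Higher ones at 24 h (9) became 15 with TMM and 3 at 2-fold. Lower ones at 24 h (29) became 44 scaled to miRNA reads, 9 with TMM, 12 with median-of-ratios factors, 13 with a pseudocount of 10 and 4 at 2-fold. Depth limits miR-222-5p, its loop and the 22-nt form most.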

Other observations

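The 3p arms carried more bases that do not follow the hairpin than the 5p arms did. Tags lying whole in the hairpin made up 65.7% of miR-222-3p reads at 24 h, against 59.9% in untreated cells. For miR-221-3p they made up 76.8% at 24 h, against 71.8% in untreated cells, and for miR-221-5p 89.99% at 24 h, against 85.04% in untreated cells. Tags of miR-222-3p that end in added A bases held 12.2% in untreated cells (10.9 to 13.6), 12.4% at 1 h (10.9 to 14.1), 11.4% at 3 h (10.0 to 12.8) and 10.1% at 24 h (8.91 to 11.3). The following tag, in which the last base is not that of the hairpin, led them.
miR-222-3p 21 nt: agctacatctggctactggga
It had 101 reads in untreated cells and 72, 84 and 73 reads at 1 h, 3 h and 24 h. In miR-221-5p, tags with added A bases held 5.02% in untreated cells (3.69 to 6.66) and 2.55%, 2.02% and 3.64% at 1 h, 3 h and 24 h. Of miR-222-3p reads 4.95% to 5.56% were 30 nt or longer.

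miR-221-3p tags that start 1 base further in, at position 66 of the hairpin, had 72 reads in untreated cells and 78, 103 and 76 at 1 h, 3 h and 24 h. Their ratio was 1.43 at 3 h (1.05 to 1.96), against 0.932 for the annotated start. Such a start moves the seed by 1 base. The following 20-nt tag from before the miR-222-5p start, ending on the base next to it, was read 1 time at 1 h, 1 time at 3 h and 3 times at 24 h, and not in untreated cells, where 3 reads (0.208 RPM) is the limit that a count of 0 allows.
2 to 21: aggattagggtgccctcagt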
